A study of Mus musculus with 61 samples.

Results

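The lacrimal glands of week 16 were examined in 12 of the 61 arrays of the series: 4 arrays from mice treated with LTBR-Ig (titled LTBRLacW16) and 8 arrays from control mice (titled MOPCLacW16 or ControlLacW16) that were pooled as 1 control group. The series profiled the lacrimal glands of NOD mice, a strain that develops autoimmune inflammation of its exocrine glands, and their salivary glands beside them, on Affymetrix whole-genome arrays. LTBR-Ig is a fusion of the mouse lymphotoxin beta receptor with mouse IgG1 (mLTBR-mIgG1), which binds the ligands of that receptor. Treated mice received it by weekly injection into the peritoneal cavity beginning at week 8, 4 of the control mice received MOPC-21, a mouse IgG1 control antibody, in the same way, and 4 were left untreated. All 12 mice were male NOD mice of week 16, and each array held the combined RNA of both glands of 1 mouse, so the sample is whole gland with whatever cells had entered it.

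The lymphotoxin beta receptor sits on stromal, endothelial and myeloid cells, and its ligands are made mainly by lymphocytes. Its signal runs through the classical and the alternative NF-kB pathways, and it is known for maintaining high endothelial venules, the vessels through which lymphocytes enter lymph nodes, and for inducing the chemokines that place B and T cells in lymphoid tissue. In chronically inflamed glands the same vessels and chemokines can appear in lymphoid aggregates outside lymph nodes.

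Values are log2 signals after GCRMA, a background correction and normalization for such arrays, and differences are log2 values in LTBR-Ig glands minus those in pooled control glands. Of 45101 probe sets, the 19742 with a value above 4 in at least 2 of the 12 arrays were tested, and they represented 9965 genes. A gene was called when its fold was at least 2 and its limma p, adjusted by the Benjamini-Hochberg method, was under 0.05. Between 38.4% and 40% of probe sets lay above 4 in the LTBR-Ig arrays and between 39.9% and 41.4% in the control arrays. The mean level of lacrimal acinar markers ran from 9.99 to 10.16 in LTBR-Ig arrays and from 9.24 to 9.97 in control arrays, although the muscarinic receptor Chrm3 did not reach 4 in any of the 12, and skeletal muscle markers did not reach 4 either. The amylase Amy1, an abundant product of the parotid gland, stood apart: it had 3.75, 3.15, 15.08 and 12.22 in LTBR-Ig replicates 1 to 4, against 14.39 and 15.31 in untreated replicates 1 and 2 and at most 3.84 in the other 6 control arrays. Amy1 was above 8 in 8 of the 31 lacrimal arrays of the series, and the counts of called genes at week 16, the list counts and the named genes were also computed without those arrays, which leaves 2 LTBR-Ig and 6 control arrays.

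In LTBR-Ig glands 544 genes were called lower (5.46% of genes tested) and 32 higher (0.321%), while the median change over the 9965 genes was -0.03. Outside a list of B cell genes (27 tested, 24 called lower) and genes with immunoglobulin symbols, 512 genes had fallen. Genes that B cells express but the list does not hold, such as H2-Oa and Tnfrsf13c, are still among the 512. Of the risen genes 24 had no Klk symbol. The 4 LTBR-Ig arrays lay entirely below the 8 control arrays for 238 of the fallen genes and entirely above them for 14 of the risen genes. Over all genes tested, 7.89% and 3.81% had groups that did not overlap in that direction. Called genes were chosen by the difference between these same arrays, so more of them had to be apart and the counts are a description. At least a 4-fold difference was seen for 57 of the fallen and 18 of the risen genes. Given the 5.46% of all genes called lower, a single call in a list below is not a result about that list. Setting the same LTBR-Ig arrays against MOPC-21 alone called 564 genes lower and 45 higher, and setting them against untreated glands alone called 379 lower and 27 higher. No gene was called by limma between MOPC-21 and untreated glands, where 14 genes passed the fold at an unadjusted p under 0.05. In a whole gland, fewer cells of a type and less RNA per cell cannot be told apart.

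The fall was not equal in the 4 treated mice. Over the fallen genes, the median level relative to the control mean was -0.59, -1.41, -2.18 and -1.55 in LTBR-Ig replicates 1 to 4, and it ran from -0.53 in MOPC-21 replicate 2 to 0.85 in MOPC-21 replicate 3 among the controls. Replicate 1 was the highest of the LTBR-Ig arrays for 508 of the 544 genes (93.4%, against 36.3% of all genes tested), and replicate 3 was the lowest for 451 (82.9%, against 32.9%). Without LTBR-Ig replicate 3 all 544 genes were still lower by mean, with a median of -1.16, but 262 were still called. Without the arrays with high Amy1 all 544 were again lower by mean, with a median of -1.07 and 322 at a fold of 2 or more, and 10 were called. Those 10 were Glycam1, Serpina1b, Pla2g2d, Cst7, Klrd1, Clca3a2, Ifitm1, Angptl1, Ripk3 and Plaur. No LTBR-Ig array had Glycam1, Pla2g2d, Cst7, Clca3a2 or Ripk3 above the floor, so these had to differ and their calls are a description. Of the gene lists below, the addressin list kept Glycam1 there, the serpin list Serpina1b, the phospholipase A2 list Pla2g2d, the cytotoxic list Cst7 and Klrd1, and the salivary list 8 members, and no other list had a member called lower. Of the 94 named genes that were called, 33 lost the call without LTBR-Ig replicate 3, 14 without MOPC-21 replicate 3, 13 without LTBR-Ig replicate 4, 12 without LTBR-Ig replicate 2 and 10 without untreated replicate 4. Traf1, Ccr2, Ifi47, Cxcl9, Cfb, Psmb8, Psmb10, Itpr2, Zap70, Il10ra, Itih2 and Dcpp1 each lost it in 4 or more of the 12 fits that left out an array. The mean over B cell markers ran from 6.34 to 8.92 in LTBR-Ig arrays and from 8.87 to 10.88 in control arrays, the T cell marker mean from 4.14 to 5.12 in LTBR-Ig arrays and from 5.23 to 6.14 in controls, and the monocyte and macrophage marker mean from 6.51 to 7.99 in LTBR-Ig arrays and from 7.16 to 8.33 in controls. Their part in the single genes that follow was not tested.

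**Figure D1:**
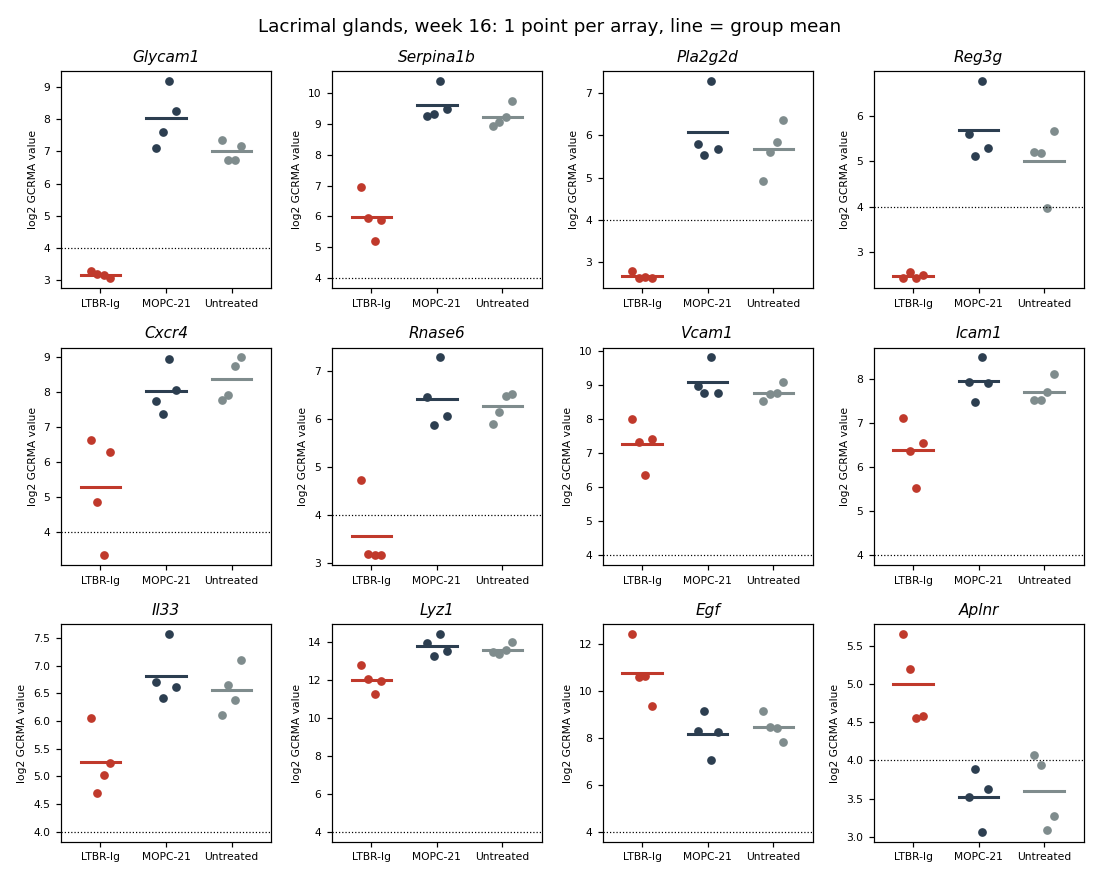
Log2 GCRMA values (y axis) of 12 genes in the LTBR-Ig, MOPC-21 and untreated lacrimal glands of week 16, with 1 point per array, a line at each group mean and a dotted line at the floor of 4. The 4 LTBR-Ig points of Glycam1, Pla2g2d and Reg3g lie together below the floor, whereas those of Cxcr4 spread between 3.36 and 6.64, and in the panels of Egf and Aplnr the LTBR-Ig points lie above those of both control groups.

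Vessel genes that bind lymphocytes held the largest fall. Glycam1, a mucin-like ligand of L-selectin made by high endothelial venules, had 3.28, 3.19, 3.18 and 3.07 in LTBR-Ig glands, against 6.72 at the lowest, 7.26 at the median and 9.19 at the highest in control glands. Its 4 LTBR-Ig arrays were below the floor and within the range of untreated week 8 glands or just above it (2.98 to 3.17), and the difference was -4.34 ± 0.38 (SE, adjusted p = 5.14e-08 by limma), a fold of 20.3 that rests on LTBR-Ig values near background. The gene passed the filter on low values through the controls alone. Of the 8 addressin and endothelial adhesion genes tested, 4 had fallen with groups apart and 4 were not called, with a list median of -1.11. Vcam1, the ligand of alpha 4 integrins, had 8.00, 7.34, 6.37 and 7.41 in LTBR-Ig glands, against 8.53, 8.77 and 9.82 (lowest, median and highest) in controls, a difference of -1.66 (adjusted p = 0.00368 by limma). Icam1 and Icam2, ligands of the leukocyte integrin LFA-1, differed by -1.44 and -1.73. The genes not called were Cd34 (-0.78), Gcnt1 (-0.45), Chst2 (-0.33) and Podxl (-0.06), which supply or modify the protein cores and sugars that L-selectin can bind. Of 12 general blood and lymphatic endothelial genes only the junction molecule Pecam1, which leukocytes also carry, was called (-1.30), not far from the 5.46% of all genes called lower. The list median was -0.21: the growth factor receptor Kdr had 0.02, von Willebrand factor (Vwf) -0.21 and endomucin (Emcn) 0.25. Without the arrays with high Amy1, Glycam1 alone of the addressin list was called.

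Some genes of the lymphotoxin and NF-kB pathways were also lower. Ltb, a subunit of the ligand itself, had 8.39, 7.33, 6.15 and 7.16 in LTBR-Ig glands, against 8.34, 8.89 and 10.21 in controls (lowest, median and highest), so that its groups met at LTBR-Ig replicate 1, and it differed by -1.76 (adjusted p = 0.008 by limma). Its receptor gene Ltbr differed by 0.32 and was not called. Of the 14 lymphotoxin and NF-kB genes tested, 4 had fallen and the median was -0.79: Ltb, the BAFF receptor Tnfrsf13c, the signalling adaptor Traf1, and Nfkb2, the precursor of the alternative pathway's p52 subunit. Nfkb2 had 5.96, 5.61, 5.18 and 6.16 in LTBR-Ig glands, against 6.49, 7.01 and 7.56 in controls, with no overlap, and differed by -1.26 (adjusted p = 0.0022 by limma), although another tested probe set of the gene had -0.02. Its partner Relb, with -0.93, stayed short of the fold of 2. Without LTBR-Ig replicate 3, 2 of the 14 were called.

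Of the 11 homeostatic chemokine and homing genes tested, 5 had fallen, with a median of -0.65. The homeostatic chemokine Ccl19 had no probe set with a single gene symbol and was not analysed. Cxcr4, the receptor of the stromal chemokine Cxcl12, had 6.64, 4.87, 3.36 and 6.28 in LTBR-Ig glands, against 7.38, 8.00 and 8.99 in controls, a difference of -2.91 ± 0.54 (SE, adjusted p = 0.0015 by limma). Cxcl13, the chemokine that draws B cells into follicles, had 10.40, 9.21, 7.08 and 7.96 in LTBR-Ig glands, against 10.09, 10.79 and 12.12 in controls, and differed by -2.34 (adjusted p = 0.00492). LTBR-Ig replicate 1 overlapped the controls for Cxcl13 and none did for Cxcr4. The receptors Cxcr5 (-2.91), Ccr6 (-1.83) and Ccr7 (-1.80), which guide lymphocytes and dendritic cells within lymphoid tissue, were the other called members, whereas Cxcl12 itself (-0.57) was not called and Cxcr6, a receptor of effector T cells, was nearly level (-0.04). Of 15 inflammatory chemokine genes 3 had fallen: the monocyte-attracting Ccl12 (-1.85) and Ccl8 (-1.57) and the interferon-induced Cxcl9 (-1.13), with a median of -0.55. That count was 0 without LTBR-Ig replicate 3, 6 without LTBR-Ig replicate 1 and 5 without MOPC-21 replicate 2, and Ccr7 lost its call without LTBR-Ig replicate 2 or 3. Il33, an alarmin of stromal and endothelial nuclei, had 6.06, 4.70, 5.03 and 5.24 in LTBR-Ig glands, against 6.11, 6.62 and 7.57 in controls, and was the only member of 6 lymphoid stroma genes that was called (-1.43, adjusted p = 0.00569).

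The promoter windows of genes that fell were searched for the NF-kB consensus, since both arms of this receptor's signal end in that factor. RefSeq windows (GRCm38.p6, 250 bases before to 50 after a start) were matched for 41 of the 55 named genes that fell with groups apart, and 8 of them (19.5%) held the consensus on either strand, overlapping matches allowed, as did 9.55% of the 27025 genes with a window and 8.46% of all 32851 windows. The named genes include members picked from the lists, among them the lymphotoxin and NF-kB list with Nfkb2, so these shares cannot show an enrichment. None of the 7 matched genes of the 10 largest rises held it, and so few genes cannot show a lower share. A match is a description of the letters and not a site. The windows of 3 fallen genes with a match and of Glycam1, the largest fall, which had none, are shown because they carry the contrast, with the matched letters in capitals and the first match at -39, -15 and -123 from the start of Nfkb2, Ubd and Reg3g. They lie at chr19:46304487-46304786 (plus strand) for Nfkb2, chr17:37193642-37193941 (plus strand) for Ubd, chr6:78468825-78469124 (minus strand) for Reg3g and chr15:103565032-103565331 (minus strand) for Glycam1, each read 5′ to 3′ in the direction of the gene. Nfkb2 had 3 matches in this window, and the first pair of them overlaps.
Nfkb2: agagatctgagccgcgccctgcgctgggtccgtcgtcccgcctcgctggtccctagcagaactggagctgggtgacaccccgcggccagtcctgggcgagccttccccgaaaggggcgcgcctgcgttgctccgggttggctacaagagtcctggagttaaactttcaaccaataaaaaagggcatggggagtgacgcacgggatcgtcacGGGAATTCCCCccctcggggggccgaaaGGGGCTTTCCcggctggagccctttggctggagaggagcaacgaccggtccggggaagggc
Ubd: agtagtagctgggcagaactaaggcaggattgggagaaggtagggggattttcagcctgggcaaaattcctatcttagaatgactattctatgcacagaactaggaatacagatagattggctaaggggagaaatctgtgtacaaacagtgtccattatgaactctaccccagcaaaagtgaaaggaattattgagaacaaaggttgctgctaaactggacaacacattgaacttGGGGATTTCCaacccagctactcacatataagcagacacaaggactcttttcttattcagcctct
Reg3g: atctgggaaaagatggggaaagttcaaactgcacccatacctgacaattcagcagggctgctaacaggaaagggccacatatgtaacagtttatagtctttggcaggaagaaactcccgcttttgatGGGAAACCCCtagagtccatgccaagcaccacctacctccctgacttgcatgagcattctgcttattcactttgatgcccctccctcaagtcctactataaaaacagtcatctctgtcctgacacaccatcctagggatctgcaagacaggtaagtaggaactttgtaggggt
Glycam1: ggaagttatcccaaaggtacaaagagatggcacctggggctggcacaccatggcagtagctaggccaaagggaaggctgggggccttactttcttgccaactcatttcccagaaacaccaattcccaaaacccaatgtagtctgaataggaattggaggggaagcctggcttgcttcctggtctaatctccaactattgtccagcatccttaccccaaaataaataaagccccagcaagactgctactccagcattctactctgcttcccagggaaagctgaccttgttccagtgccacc

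Secreted proteins with no place in the B cell list were among the largest falls. Serpina1b, a gene of the alpha 1-antitrypsin family, had 6.95, 5.95, 5.22 and 5.87 in LTBR-Ig glands, against 8.93, 9.28 and 10.40 in controls, a difference of -3.43 ± 0.37 (SE, adjusted p = 2.41e-06 by limma) with all 12 values above the floor. Pla2g2d, a secreted phospholipase A2 known from dendritic cells and macrophages of lymphoid tissue, had 2.79, 2.63, 2.66 and 2.62 in LTBR-Ig glands, against 4.93, 5.73 and 7.29 in controls, and differed by -3.20. Reg3g, an antibacterial lectin of epithelia, had 2.44, 2.58, 2.43 and 2.49 in LTBR-Ig glands, against 3.98, 5.25 and 6.78 in controls, and differed by -2.87. The groups were apart for these 3 genes, and in Pla2g2d and Reg3g the LTBR-Ig values were all below the floor and at or near those of untreated week 8 glands (at most 2.64 and 2.45). Both passed the filter through the controls alone, so they had to differ, and the sizes of their differences depend on values near background.

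The lists around these genes moved less. Of 11 serpin and protease inhibitor genes 5 had fallen (median -0.81), among them Serpinb1a (-1.94), an inhibitor of neutrophil proteases, and Serpina1c (-1.71), whose sequence is close enough to that of Serpina1b that their probes may share signal. No LTBR-Ig array had Serpina1c above the floor, so it passed the filter through the controls alone and had to differ. Of 7 phospholipase A2 genes 2 had fallen (median -0.96), the other being Pla2g7 (-1.40), which cleaves platelet-activating factor. Reg3g was the only one called of 8 antimicrobial and acute-phase genes, whose median was 0.13 and among which lipocalin 2 (Lcn2) had -0.22 and Saa3 0.79. The lysozymes fell in both forms: Lyz1 had 12.79, 12.08, 11.29 and 11.94 in LTBR-Ig glands, against 13.28, 13.57 and 14.43 in controls, with no overlap (-1.68, adjusted p = 0.00139 by limma), and Lyz2, the close relative typical of macrophages, differed by -1.80. The probes of these close relatives may share signal, so the falls may not be separate. Of 10 complement genes 2 had fallen, the complement regulator Cd55 (-1.80) and factor B (Cfb, -1.41), and of 16 cathepsin and cystatin genes 2 had fallen, cathepsin E (Ctse, -1.88) and cathepsin W (Ctsw, -1.61), with list medians of -0.22 and -0.67. Without LTBR-Ig replicate 3, 3 of the 11 serpin genes were called.

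A group of 40 fallen genes had groups apart and all 4 LTBR-Ig arrays at or below the floor of 4. Such genes passed the filter on low values through the controls, so they had to differ, and they are given as a description only. Next to Glycam1, Pla2g2d and Reg3g, the highest control medians in this group were those of Clca3a2 (5.36), of the chloride channel regulator family, histidine ammonia lyase (Hal, 5.24) and monoamine oxidase B (Maob, 5.05). Flt3, the receptor that drives dendritic cell development, had 2.91, 2.996, 2.90 and 2.99 in LTBR-Ig glands, against 3.67, 4.50 and 5.04 in controls. Ripk3, a kinase of necroptosis, lay between 2.92 and 3.03 in LTBR-Ig glands and between 3.52 and 5.19 in controls, and Serpina1c between 1.75 and 1.80 in LTBR-Ig glands and between 1.88 and 5.40 in controls. Glucose transporter 3 (Slc2a3) had 3.38, 2.22, 2.19 and 2.84 in LTBR-Ig glands, against 3.84, 4.89 and 6.04 in controls, and Haao, an enzyme of tryptophan breakdown, lay between 2.09 and 2.78 in LTBR-Ig glands and between 3.24 and 5.92 in controls.

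T cell genes fell as a block. Of the 15 T cell receptor and co-receptor genes tested, 14 had fallen, 5 of them with groups apart, and Cd247 (-0.91) was the exception, with a list median of -1.44. Skap1, among the 5 with groups apart, had no LTBR-Ig array above the floor. It passed the filter through the controls alone and had to differ. Cd2, an adhesion receptor of T and natural killer cells, had 6.65, 5.76, 5.04 and 4.74 in LTBR-Ig glands, against 6.87, 7.47 and 8.70 in controls, a difference of -1.995 (adjusted p = 0.00202 by limma). Cd3d (-1.73), Cd4 (-1.48), Cd28 (-1.45) and Lat (-1.44) were in the same block. Without LTBR-Ig replicate 3, 4 of the 15 were called, and without LTBR-Ig replicate 4, 9 were. Of 10 regulatory and helper T cell genes only the costimulatory receptor Tnfrsf18 was called (-1.38), and that call was lost without LTBR-Ig replicate 3. Ctla4 (-0.87), Icos (-0.97) and Pdcd1 (-1.09) did not pass.

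Of the 10 cytotoxic lymphocyte genes tested, 8 had fallen, with a median of -1.41. The natural killer receptor Ncr1, granzyme A (Gzma) and Cst7 had no LTBR-Ig array above the floor, so they passed the filter through the controls alone and had to differ. Klrd1, a subunit of natural killer cell receptors, had 5.43, 4.71, 3.97 and 4.55 in LTBR-Ig glands, against 5.99, 6.56 and 7.29 in controls, and differed by -1.92 (adjusted p = 0.000937 by limma). Cst7, the cystatin that restrains granule proteases, had 3.44, 2.51, 3.42 and 3.11 in LTBR-Ig glands, against 4.06, 4.88 and 5.68 in controls, a description only. The transcription factor Eomes fell (-1.47), whereas Tbx21 (-0.53) was not called.

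Of 17 cytokine receptor and JAK-STAT genes 8 had fallen, with a median of -0.95. Among the 8, Il2rb had no LTBR-Ig array above the floor, so it passed the filter through the controls alone and had to differ. Stat4, the transcription factor of the interleukin 12 response, had 5.22, 4.13, 2.91 and 4.38 in LTBR-Ig glands, against 6.06, 6.38 and 7.43 in controls, with no overlap and a difference of -2.33 ± 0.45 (SE, adjusted p = 0.00201 by limma). The receptors for interleukin 7 (Il7r, -1.49), interleukin 18 (Il18r1, -1.40) and interferon gamma (Ifngr1, -1.07) were also called. Stat3 (-0.22), Stat5a (-0.34) and Stat6 (-0.48) were not. The count of 8 was 1 without LTBR-Ig replicate 3, 4 when LTBR-Ig replicate 4 or MOPC-21 replicate 3 was omitted, and 5 without LTBR-Ig replicate 2 or untreated replicate 4.

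Genes of antigen presentation to CD4 T cells fell together. Of 9 MHC class II genes 8 had fallen, with a median of -1.31, and the ninth, H2-Aa, was at -0.999 with a fold just under 2. H2-Oa, a chain of the DO molecule that restrains peptide loading and is most abundant in B cells, had 6.52, 5.01, 3.86 and 4.86 in LTBR-Ig glands, against 6.79, 7.13 and 8.33 in controls, a difference of -2.29 ± 0.37 (SE, adjusted p = 0.000862 by limma). Its partner H2-Ob (-2.45) and the DM chain H2-DMa (-1.83) moved more than the classical chains H2-Ab1 (-1.25) and H2-Eb1 (-1.10) and the invariant chain Cd74 (-1.12), and the class II transactivator Ciita had -1.31. These levels are of genes that share sequence within the family. Without LTBR-Ig replicate 3, 4 of the 9 were called. On the class I side 4 of 13 genes had fallen (median -0.76), the nonclassical H2-M3 (-1.36), the peptide transporter subunit Tap2 (-1.28) and the immunoproteasome subunits Psmb8 (-1.11, with another probe set at -0.19) and Psmb10 (-1.001), whereas B2m, the light chain of class I molecules, had -0.27. The class I count was 0 without LTBR-Ig replicate 3, 1 without LTBR-Ig replicate 4, and 2 when MOPC-21 replicate 3 or untreated replicate 4 was omitted.

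Dendritic cell and macrophage genes gave a mixed picture. Of 11 dendritic cell genes 7 had fallen (median -1.25), with the integrin Itgax (-1.71), the actin bundler Fscn1 of mature dendritic cells (-1.43, with another probe set at -0.24) and Irf8 (-1.26) among them. Flt3, also among the 7, had no LTBR-Ig array above the floor, so it passed the filter through the controls alone and had to differ. Of 18 monocyte and macrophage genes 4 had fallen (median -0.70): Clec7a, a receptor for fungal glucan, had 6.90, 5.89, 4.56 and 5.45 in LTBR-Ig glands, against 7.07, 7.64 and 8.86 in controls (-2.03, adjusted p = 0.003 by limma), and Cd68 (-1.501), the oxidase subunit Cybb (-1.20) and Ccr2 (-1.06) were the others. The tissue macrophage markers Adgre1 (0.04), Fcgr1 (-0.10) and Mrc1 (-0.17) were near 0. Others of this kind were lower without a call, among them C1qa (-0.96), Aif1 (-0.81), Cd163 (-0.77) and Csf1r (-0.61), and 17 of the 18 genes were below 0. Without LTBR-Ig replicate 3, 2 of the 11 dendritic cell genes and 2 of the 18 macrophage genes were called, and without LTBR-Ig replicate 1, 9 of the 18 were. Of 27 pan-leukocyte genes 21 had fallen (median -1.53), among them Coro1a (-1.85), a regulator of leukocyte actin, and the transcription factor Ikzf1 (-1.77), a count that was 11 without LTBR-Ig replicate 3.

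Of 25 interferon response genes tested 2 had fallen, a share near that of all genes, but 20 of the 25 were below 0 and the list median was -0.50 against -0.03 over all genes. The called members were Ifi47, an interferon-induced GTPase (-1.13), and Ubd, a ubiquitin-like modifier induced by interferon gamma and tumour necrosis factor, which had 5.08, 4.92, 4.28 and 5.85 in LTBR-Ig glands, against 6.65, 7.09 and 8.36 in controls (-2.18, adjusted p = 0.00425 by limma). Irf7 (-0.40), Ifit3 (0.13), Rsad2 (0.26) and Usp18 (0.55) were not called. Plasma cell genes were divided, 3 of 8 having fallen: the regulator Irf4 (-1.96), the chaperone Mzb1 (-1.81) and Jchain (-1.16), which links IgA and IgM polymers, whereas Prdm1 (-0.54) was not called and Xbp1 (0.23), Sdc1 (0.14) and Derl3 (0.59), which secretory epithelium also expresses, were above 0. Of 17 cell cycle genes only Nusap1 was called (-1.30), a share near the 5.46% of all genes called lower, with a median of -0.58.

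**Figure D2:**
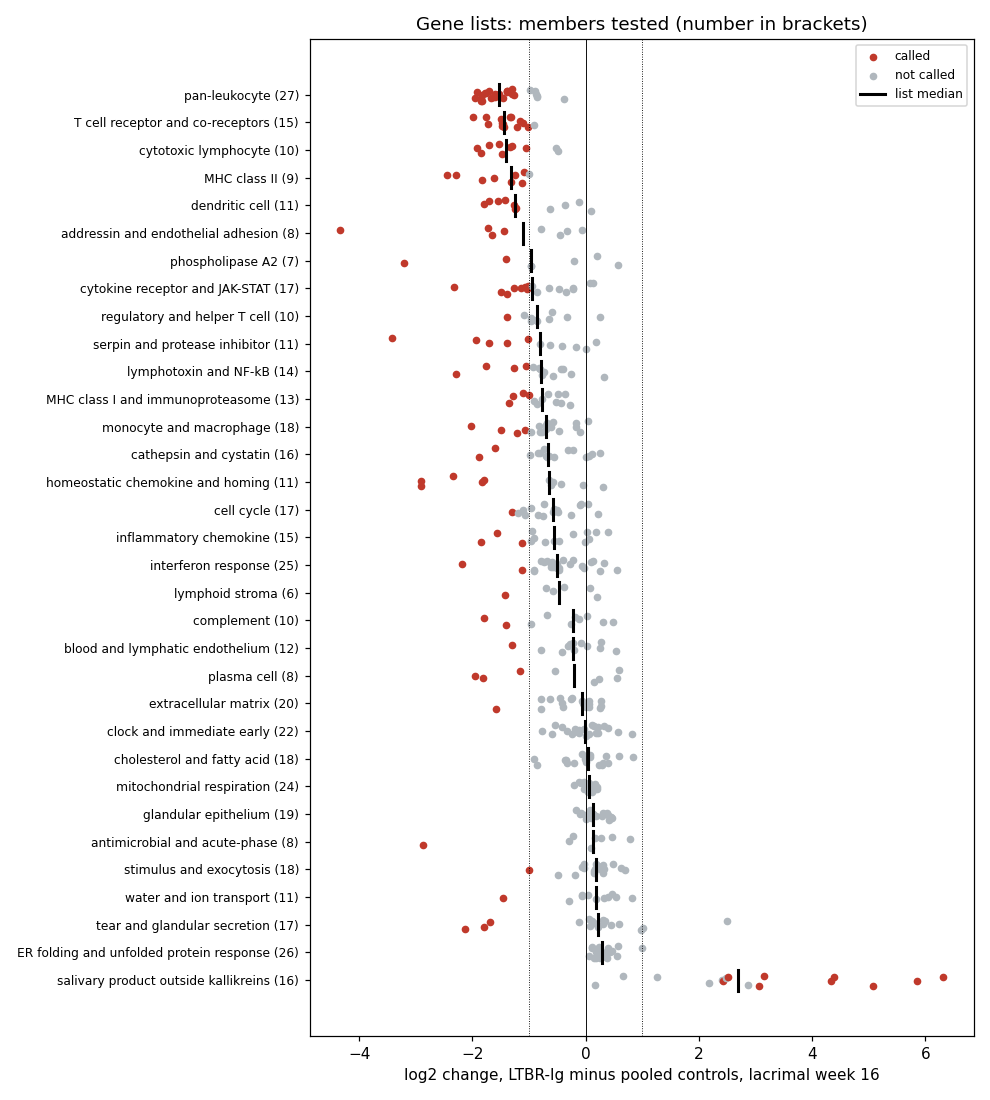
Log2 change in LTBR-Ig minus pooled control lacrimal glands of week 16 (x axis) for each tested member of the gene lists (rows, number of members in brackets), with called members in red, others in grey, a black bar at each list median and dotted lines at a fold of 2. Immune lists lie left of 0, with medians down to -1.53, gland and housekeeping lists lie near 0, and salivary products lie to the right with a median of 2.69.

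Of the 512 fallen genes outside the B cell list and immunoglobulin symbols, 398 were in none of the lists and 114 were in one. Among those in none, Rnase6, a secreted ribonuclease with antimicrobial activity, had 4.72, 3.19, 3.16 and 3.17 in LTBR-Ig glands, against 5.86, 6.29 and 7.27 in controls, and differed by -2.77 ± 0.52 (SE, adjusted p = 0.00173 by limma). Lrrk2, a kinase studied in Parkinson disease and expressed in leukocytes, had 4.95, 3.88, 2.72 and 2.74 in LTBR-Ig glands, against 5.12, 5.79 and 7.05 in controls (-2.40, adjusted p = 0.00168). Hvcn1, the voltage-gated proton channel of phagocytes and B cells, had 6.54, 5.48, 3.80 and 4.78 in LTBR-Ig glands, against 6.56, 7.39 and 8.56 in controls (-2.37, adjusted p = 0.00155). In these 3 genes LTBR-Ig replicate 1 was the nearest to the controls, and for Hvcn1 the gap to the lowest control was the narrowest of them. Protein kinase D2 (Prkd2) had 5.57, 4.35, 4.36 and 4.36 in LTBR-Ig glands, against 6.33, 6.93 and 7.51 in controls (-2.23, adjusted p = 0.00255), with its other probe sets as small as -0.75. The largest falls of the named rule also held Nxpe3 (-2.36), which lost its call without LTBR-Ig replicate 3, and Pxdc1 (-2.22).

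The gland's own secretory machinery differed mostly by less than the fold of 2. None of the 19 glandular epithelium genes was called (median 0.13), with Krt18 at 0.29 and Epcam at 0.12, and none of 26 endoplasmic reticulum folding genes was called although all 26 were above 0, with a median of 0.28 against -0.03 over all genes. The chaperone Hspa5 had 14.12, 14.22, 14.32 and 14.38 in LTBR-Ig glands, against 13.46, 14.00 and 14.15 in controls (lowest, median and highest), a difference of 0.28 (adjusted p = 0.0321 by limma) that is under the fold required. The acinar transcription factor Bhlha15 likewise differed by 0.39 and lay between 12.09 and 12.43 in LTBR-Ig glands, against 10.82 to 12.34 in controls. Of 17 tear and glandular secretion genes 3 had fallen, the lysozymes above, whose probes may share signal, and the membrane glycoprotein Gp2 (-2.13). Of the others, lactoperoxidase (Lpo) had 0.45, the polymeric immunoglobulin receptor Pigr 0.59 and the prolactin-inducible protein Pip 0.11. Groups did not overlap for 8 of the 17, 3 of them lower, against 7.89% of all genes tested below and 3.81% above. Lpo, Pigr, Lcn11, Dnase1 and Wfdc18 were the members with all LTBR-Ig arrays above all controls.

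The channels and release machinery that tear flow needs gave single calls, not far from the 5.46% of all genes tested that were called lower. Of 11 water and ion transport genes only carbonic anhydrase 2 (Car2, -1.45) was called, while the water channel Aqp5 had 0.47 and the chloride channel Ano1 0.19. In this list Aqp5 and Kcnma1, and in the next Rab27a, Rab27b and Trpv6, had all LTBR-Ig arrays above all controls, as had 3.81% of all genes tested. Of 18 genes of stimulus and exocytosis only the calcium channel Itpr2 (-1.002) was called, a call that was lost when LTBR-Ig replicate 2, 3 or 4, MOPC-21 replicate 3 or untreated replicate 4 was left out, while the granule GTPase Rab27b had 0.62. Of 20 extracellular matrix genes only Tgfb1 (-1.59) was called, and the collagens Col1a1 (0.26) and Col3a1 (0.01) were not. None of 24 mitochondrial respiration genes (median 0.06), 18 cholesterol and fatty acid genes (0.04) or 22 clock and immediate early genes (-0.01) was called.

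The 32 genes called higher were split by their level in salivary relative to lacrimal glands. In untreated week 8 mice 20 of the 32 (62.5%) were at least 2 log2 units higher in salivary than in lacrimal glands, against 2.89% of all genes tested, and 12 were not. Of 16 salivary products outside the kallikreins, 9 had risen, with a median of 2.69. Smgc and Smr2, both among the 9, had no control array above the floor. They passed the filter through LTBR-Ig arrays alone and had to differ. Mucl1, a mucin-like secreted protein, had 14.59, 12.23, 12.72 and 10.39 in LTBR-Ig glands, against 3.67, 4.87 and 11.06 in controls, and differed by 6.32 (adjusted p = 0.00166 by limma), with the groups overlapping at the highest control. Crisp3, a cysteine-rich secretory protein, had 13.45, 11.32, 12.01 and 9.58 in LTBR-Ig glands, against 3.23, 4.63 and 9.91 in controls, and differed by 5.86 (adjusted p = 0.00173). In untreated week 8 lacrimal glands Mucl1 already had 11.37 to 12.33, within the LTBR-Ig range, but Crisp3 had 3.16 to 4.97, near the control values. Genes on the salivary side of the split varied widely in those lacrimal glands. Scgb1b27 averaged 12.75 there, A2ml1 8.69 and Egf 8.64, but Smgc and Dcpp1 each averaged 3.10. The mean over the salivary markers Amy1, Bpifa2, Dcpp1, Smgc, Mucl1 and Smr2 ran from 6.10 to 11.00 in LTBR-Ig arrays and from 2.78 to 9.45 in control arrays. Dcpp1, Smgc, Mucl1 and Smr2 are themselves among the risen genes, so this mean is not a measure apart from the rises. The part of salivary tissue in these rises was not tested.

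Among the rises with groups apart, Egf, the epidermal growth factor precursor stored in salivary ducts, had 12.40, 10.59, 10.63 and 9.36 in LTBR-Ig glands, against 7.04, 8.36 and 9.15 in controls, a difference of 2.42 ± 0.57 (SE, adjusted p = 0.00454 by limma). Egfbp2, the binding protein of that factor and a member of the glandular kallikrein family under another symbol, had 12.18, 9.26, 9.89 and 8.67 in LTBR-Ig glands, against 3.97, 4.99 and 8.63 in controls (4.29, adjusted p = 0.00254). Smr2, a submaxillary gland androgen-regulated protein, had 8.17, 5.81, 6.04 and 3.66 in LTBR-Ig glands, against 2.14, 2.94 and 3.44 in controls (3.15), with no control above the floor. Smr2 thus passed the filter through LTBR-Ig arrays alone and had to differ, and the size of its difference depends on control values near background. The LTBR-Ig order of these 3 genes was headed by replicate 1. Without the arrays with high Amy1 all 32 risen genes were still higher by mean, 19 of them called, with a median of 3.22. Leaving out those arrays sorts by a parotid product, and the presence of other salivary tissue was not tested. Amy1 and Bpifa2, products of the parotid gland, differed by 2.18 (adjusted p = 0.515) and 2.87 (adjusted p = 0.42) and were not called. Dcpp1 (4.38, adjusted p = 0.0403) lost its call in 9 of the 12 fits that left out an array, the exceptions being those without MOPC-21 replicate 2 and without untreated replicate 1 or 2.

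Other rises with groups apart were smaller. Aplnr, the apelin receptor of endothelial cells, had 5.66, 5.20, 4.55 and 4.59 in LTBR-Ig glands, against 3.06, 3.57 and 4.07 in controls, a difference of 1.44 ± 0.24 (SE, adjusted p = 0.001 by limma), and it had 5.79 to 6.87 in untreated week 8 glands. Dbh, the enzyme that makes noradrenaline from dopamine, had 4.62, 5.34, 5.55 and 4.83 in LTBR-Ig glands, against 3.11, 3.71 and 4.25 in controls (1.42, adjusted p = 0.00254). Cuzd1, a CUB and zona pellucida domain protein of secretory epithelia, had 4.26, 4.30, 4.65 and 4.80 in LTBR-Ig glands, against 2.58, 3.18 and 3.78 in controls (1.32), and lay between 4.16 and 4.99 at week 8. No control array had Cuzd1 above the floor of 4, so it passed the filter through LTBR-Ig arrays alone and had to differ. Its values are a description only. Each had groups apart, and the LTBR-Ig levels of Cuzd1 overlapped those of week 8 while those of Aplnr stayed below them. The protease inhibitor A2ml1 (1.40), which was 6.14 higher in salivary than in lacrimal glands at week 8, the uroplakin Upk1a (1.06), the hyaluronan-binding protein precursor Itih2 (1.05) and Styk1 (1.09) completed the 10 largest rises with groups apart. The last 3 of these lie close to the fold of 2, and their calls were lost when either MOPC-21 replicate 3 or LTBR-Ig replicate 3 was left out. Upk1a also lost its call without LTBR-Ig replicate 2, and Itih2 without LTBR-Ig replicate 4 or untreated replicate 4.

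**Figure D3:**
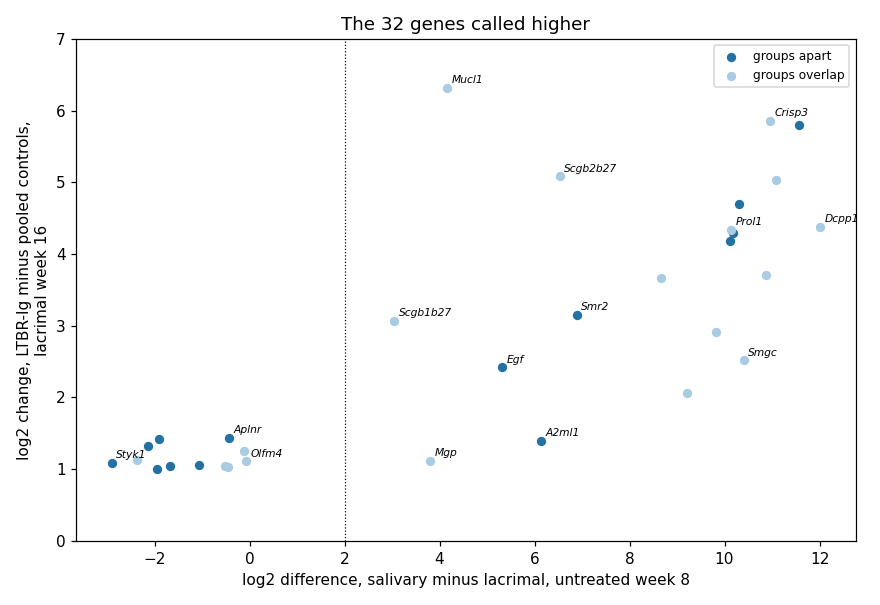
The 32 genes called higher, with the log2 difference between salivary and lacrimal glands of untreated week 8 mice (x axis) and the log2 change in LTBR-Ig minus pooled control lacrimal glands of week 16 (y axis). Dark points are genes whose groups do not overlap, and the 20 genes right of the dotted line at 2 include the largest rises, whereas the 12 left of it stay below 1.5.

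How these genes stood in untreated mice of other ages was examined next, in arrays that did not enter the group means of the week 16 comparison. Of the 544 fallen genes 497 (91.4%) were called higher in week 14 than in week 8 lacrimal glands, against 11.2% of all genes tested, and none was called lower. Their median difference between those weeks was 2.39, against -0.07 over all genes. Vcam1 was 4.46 higher at week 14 than at week 8, Lyz1 3.74 and Glycam1 3.51, whereas Aplnr, which was higher in LTBR-Ig glands, had a difference of -2.91 between week 14 and week 8. The week 14 and week 8 comparison shares the estimate of spread, from all 31 lacrimal arrays, with the week 16 comparison. The group means of the 2 comparisons share no array.

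**Figure D4:**
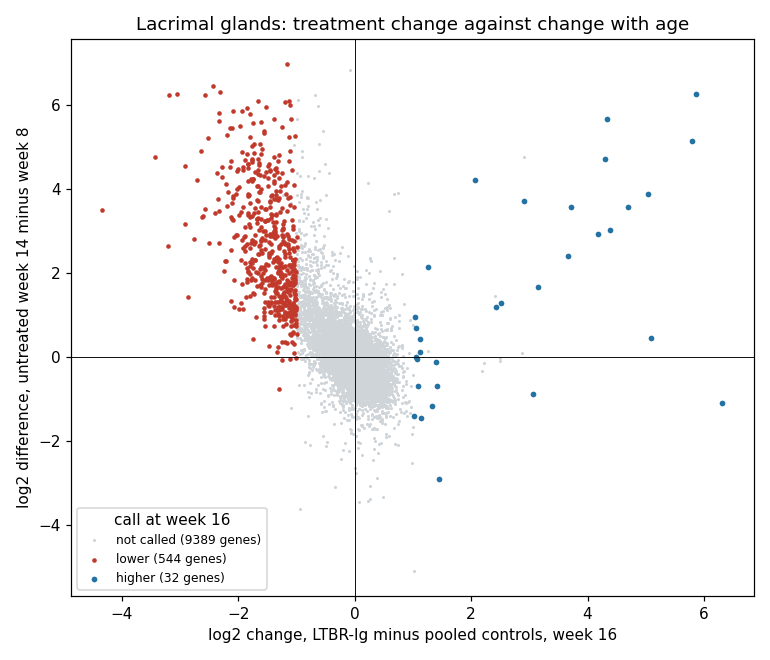
Log2 change in LTBR-Ig minus pooled control lacrimal glands of week 16 (x axis) against the log2 difference between untreated week 14 and week 8 lacrimal glands (y axis), 1 point per gene tested. The 544 genes called lower (red) lie mostly in the upper left, where 497 were called higher at week 14, and the 32 called higher (blue) lie on both sides of 0 on the y axis.

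At week 12, in 4 LTBR-Ig and 7 control arrays, few genes were called: 3 lower (0.0301%) and 5 higher (0.0502%). Of the 544 genes fallen at week 16, 2 were among them. Glycam1 averaged 3.19 in LTBR-Ig glands of week 12 and 6.56 in their controls (-3.38 ± 0.38 SE, adjusted p = 2.51e-05 by limma), and Serpina1b averaged 6.46 in LTBR-Ig glands and 8.54 in controls (-2.08 ± 0.38 SE, adjusted p = 0.012). Pla2g2d averaged 2.69 in LTBR-Ig glands and 4.48 in controls and did not pass (-1.79, adjusted p = 0.0973). Reg3g (-1.68), Stat4 (-1.12), Cxcr4 (-0.78) and Slc2a3 (-0.77) were also lower by mean without a call, whereas H2-Oa (-0.14), Hvcn1 (-0.08) and Rnase6 (-0.04) lay near 0 and Cxcl13 averaged 10.09 in LTBR-Ig glands and 9.78 in controls. By mean, 317 of the 544 were lower at week 12 (58.3%, against 54.8% of all genes), with a median of -0.06, and 27 of the 32 risen genes were higher, with a median of 1.60 and 1 called. The difference between the effects at week 16 and week 12 was called by limma for no gene, with 669 at the fold and an unadjusted p under 0.05, and for 490 without LTBR-Ig replicate 1, so the weeks are not shown to differ for any gene in the fit of all arrays.

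In salivary glands of week 16, with 4 LTBR-Ig and 8 control arrays, 8 genes were called in all (0.0803%), 5 of them among the 544 fallen lacrimal genes and none among the 32 risen. The median over the fallen genes was -0.05. Glycam1 averaged 2.96 in LTBR-Ig and 2.99 in control salivary glands, both below the floor, as were Pla2g2d (2.61 in both groups) and Reg3g (2.40 in both). Vcam1 averaged 3.73 in LTBR-Ig and 4.47 in control salivary glands, and Jchain 5.96 in LTBR-Ig and 9.75 in control salivary glands. The effects in the 2 glands differed for 484 genes (4.86%), 393 of them among the fallen and 28 among the risen lacrimal genes, and for 88 without the arrays with high Amy1. Since these genes were chosen by their lacrimal change, and many of the fallen ones lay near background in salivary glands of both groups, the count is a description. Egf, at 14.73 in LTBR-Ig and 14.75 in control salivary glands, was level there. Aplnr was not called in the difference between glands (adjusted p = 0.161), and it averaged 5.27 in LTBR-Ig and 4.52 in control salivary glands.

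**Figure D5:**
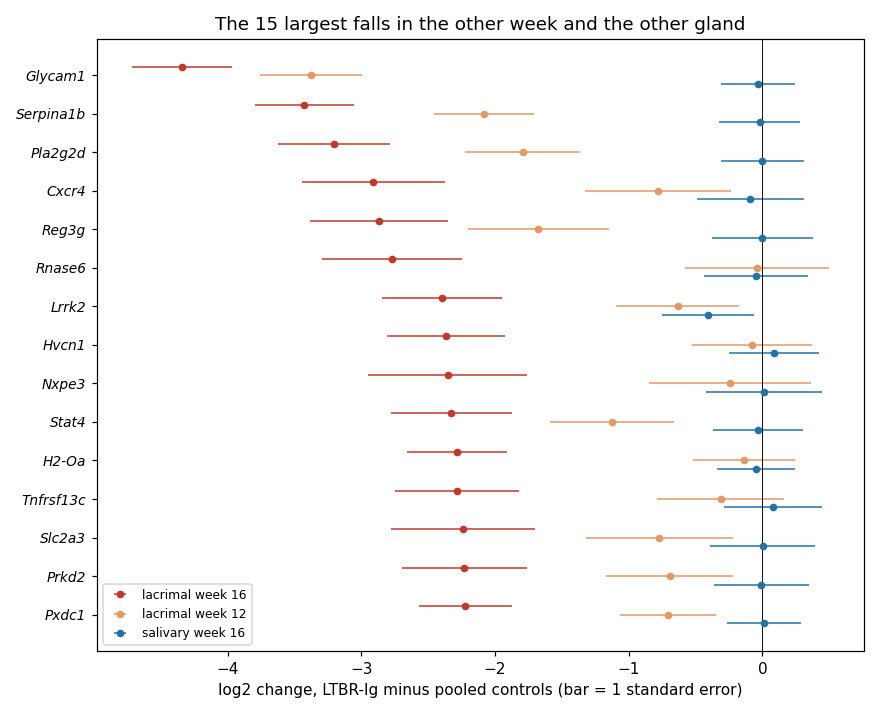
Log2 change in LTBR-Ig minus pooled controls (x axis, bar of 1 standard error) for the 15 largest falls with groups apart (rows), in lacrimal glands of week 16, lacrimal glands of week 12 and salivary glands of week 16. Glycam1 and Serpina1b stand left of 0 in both lacrimal weeks, and the salivary points lie close to 0.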

How the data were processed

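Affymetrix whole-genome arrays of the mouse were used, 1 per mouse. The deposited values are log2 signals that the authors computed with GCRMA over the whole set, and no values of the authors' own comparisons were used. Probe sets with 1 gene symbol in the platform annotation (34958 of 45101, with 932 listing several symbols and 9211 not listed) were named, and a gene was represented by its probe set of highest mean over all 61 arrays. Genes without such a probe set, Ccl19 among them, were not analysed here. Scanner files and scan dates were not used here, and the number of arrays limits the precision.

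Groups came from the array titles. limma 3.58.1 in R 4.3.3 fitted group means with an intensity trend over all 31 lacrimal arrays (61 for the difference between glands), with MOPC-21 and untreated arrays of a week pooled and p-values adjusted over 19742 probe sets. Same-numbered arrays did not deviate together, with correlations between -0.507 and 0.201, so numbers were not used as pairs. Named genes were the 15 largest falls and 10 largest rises among called genes with groups apart, outside B cell, immunoglobulin and Klk genes, the called members of largest change in each list (up to 4), and Cxcl13, Amy1 and Bpifa2. Members, lists and rules were chosen with earlier results of these data known, and other members are named as examples chosen after their values were seen. The script was tested on simulated data. Alternatives were other fits, filters, controls, normalizations and the omission of each array.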

Additional observations from a re-analysis of the deposited data

Results flagged for a closer look

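Single arrays stood apart in 4 of the 56 sets of replicate values that were tested for an outlying array, and chance gives about 1 in 20 of such sets. LTBR-Ig replicate 1 had 4.72 for Rnase6 (the next array 3.19) and 5.57 for Prkd2 (the next 4.36), MOPC-21 replicate 3 had 7.27 for Rnase6 (the next 6.52), and untreated replicate 3 had 6.64 for A2ml1 (the next 7.64).

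The treatment effect at week 16 differed between lacrimal and salivary glands for 24 of the 25 genes with the largest changes, by the limma test of the difference itself (adjusted p from 5.62e-11 to 0.0278). These genes were chosen for their lacrimal change, and the fallen ones, apart from Prkd2, averaged under 4 in both salivary groups and could hardly fall there, so the values are descriptions and not independent evidence of a difference between the glands. Among genes of vessels, homing and lymphocytes, the lacrimal effect minus the salivary effect was -4.31 for Glycam1, -2.82 for Cxcr4, -2.30 for Stat4, -2.24 for H2-Oa and -2.36 for Tnfrsf13c. Among secreted proteins it was -3.41 for Serpina1b, -3.20 for Pla2g2d, -2.87 for Reg3g and -2.72 for Rnase6. It was -1.99 for Lrrk2, -2.45 for Hvcn1, -2.37 for Nxpe3, -2.24 for Slc2a3, -2.22 for Prkd2 and -2.23 for Pxdc1. Among the rises it was 4.21 for Egfbp2, 3.07 for Smr2, 2.43 for Egf, 1.42 for Dbh, 1.33 for A2ml1, 1.32 for Cuzd1, 1.02 for Styk1, 1.07 for Upk1a and 1.05 for Itih2.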

How the results depend on the processing

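The counts of 544 genes lower and 32 higher at week 16 were 553 and 31 with only the 12 arrays in the fit, 541 and 32 with no filter on low values, and 550 and 34 with the replicate number as a block, although those numbers do not pair the mice. The authors' kind of criterion, a posterior probability, called 50 lower and 7 higher. Without the arrays with high Amy1, an alternative chosen after seeing the data, 10 were lower and 23 higher, and 2 LTBR-Ig arrays remained, with 11 genes called against MOPC-21 alone, 0 by limma against untreated glands alone (309 at the fold and an unadjusted p under 0.05), 0 between weeks (61 at that p) and 88 between glands. Leaving out 1 array gave 263 (LTBR-Ig replicate 3) to 775 (LTBR-Ig replicate 1) genes lower and 25 to 41 higher. Against MOPC-21 alone (609 called) it gave 53 without MOPC-21 replicate 3 to 869, with 154 and 403 without LTBR-Ig replicates 3 and 4. Against untreated glands alone (406 called) it gave 6 without untreated replicate 4 to 655 without LTBR-Ig replicate 1, with 18 and 105 without LTBR-Ig replicates 3 and 4, 113 and 249 without untreated replicates 3 and 2, and 179 without LTBR-Ig replicate 2. The difference between weeks (0 called) gave 0 to 490, and that between glands (484 called) gave 171 to 759. All 94 named genes that were called kept their direction under the alternatives in which they were tested, and 70 of them kept the call against untreated glands alone, 87 against MOPC-21 alone, 21 with the posterior and 13 without the arrays with high Amy1. The cause of these moves was not tested.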
